A study of Mus musculus with 4 samples.

Results

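Neutrophils were described across 4 single-cell RNA libraries of mouse liver. They were chosen by measured UMIs (unique molecular identifiers, 1 per captured RNA molecule): at least 10 UMIs of S100a8 and S100a9 together and at least 1 of Csf3r, with 0 of Csf1r, Cd3e and Stab2 and fewer than 2 of Cd79a. In all, 495 of 42454 barcodes that passed the filters met this rule. The libraries were 1 of early hepatocellular carcinoma (eHCC) tissue labelled Mef2d KO, 1 of eHCC tissue labelled WT, 1 of premalignant liver labelled KO and 1 of premalignant liver labelled WT. Tissue was dissociated and its RNA read with 10x Genomics 5' chemistry, which counts molecules near the start of the transcript. The labels and files used here do not state the strain, age or sex, how many animals went into a library, the tumour model, or the allele and target cells of the Mef2d deletion. With 1 library per group no test was possible. Every interval below is at 95% and covers counting error only, and no difference was checked in a second library.

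Neutrophils are short-lived granulocytes made in the bone marrow under the growth factor receptor encoded by Csf3r. They store their proteins in granules that form in a fixed order during maturation: primary granules in promyelocytes, secondary and tertiary granules later. Mature cells leave the marrow for the blood and enter inflamed tissue or tumours along chemokine gradients read by Cxcr2.

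The label was checked against 15 neutrophil markers that the rule did not use; detection of S100a8, S100a9 and Csf3r was fixed by the rule. All 15 were detected in KO eHCC and WT eHCC members, 13 in KO premalignant members, where Camp and Ltf were at 0, and 15 in WT premalignant members. They made up 5.88% of member UMIs in KO eHCC, 3.08% in WT eHCC, 1.53% in KO premalignant and 3.5% in WT premalignant libraries. Cxcr2, one of them, had a UMI in 39 of 47 KO eHCC, 325 of 387 WT eHCC, 24 of 27 KO premalignant and 33 of 34 WT premalignant members. After thinning every barcode to 500 UMIs, Cxcr2 was seen in 8 of 47 KO eHCC and 133 of 387 WT eHCC members, against 0% of KO eHCC and 0.272% of WT eHCC B cell barcodes. Of the 12 monocyte and macrophage markers, 5, 11, 3 and 7 were detected in KO eHCC, WT eHCC, KO premalignant and WT premalignant members. Their summed UMIs were 0.103%, 0.0627%, 0.00968% and 0.0317% of the members' UMIs, with Csf1r at 0 by rule. Of the 7 eosinophil markers, 2, 4, 1 and 1 were detected in KO eHCC, WT eHCC, KO premalignant and WT premalignant members. At least 2 of their UMIs were held by 3, 86, 0 and 0 members in the same order. Siglecf, one of the 7, had a UMI in 37.0% of WT eHCC members. The eosinophil granule genes Epx and Prg2 were at 0 in the members of all 4 libraries.

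The targeted gene, Mef2d, which encodes a MADS-box transcription factor, was not lower in the libraries labelled KO. Members held 29 Mef2d UMIs (78.5 CPM, the gene's UMIs scaled to the same total in every library) in KO eHCC and 110 (59.0 CPM) in WT eHCC. They held 8 (111 CPM) in KO premalignant and 5 (46.7 CPM) in WT premalignant. All other passing barcodes held 95.9 CPM in KO eHCC and 61.8 CPM in WT eHCC, and 104 CPM in KO premalignant and 73.1 CPM in WT premalignant. Since the deleted part of the gene is not known here, these counts neither check nor contradict the labels, and KO and WT below name the label of a library.

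Free RNA and depth differed between the libraries. At least 1 S100a8 or S100a9 UMI was found in 16.5% of KO eHCC and 53.1% of WT eHCC B cell barcodes, and in 4.61% of KO premalignant and 6.11% of WT premalignant ones, while 1, 4, 6 and 3 B cell barcodes reached 10. Members had medians of 4720, 3809, 2432 and 2702 UMIs in KO eHCC, WT eHCC, KO premalignant and WT premalignant libraries. At least 2 UMIs of a set of 28 other-lineage markers, which leaves out albumin and other hepatocyte genes, haemoglobins and Ly6c2, were held by 10 of 47, 159 of 387, 6 of 27 and 12 of 34 members in the same order of libraries. Counted by class, at least 2 UMIs of monocyte and macrophage markers were in 22 KO eHCC, 195 WT eHCC, 1 KO premalignant and 9 WT premalignant members, and of hepatocyte markers in 0, 87, 11 and 17. Erythroid RNA was widespread in KO eHCC: at least 2 UMIs of erythroid markers were in 47 of 47 KO eHCC, 105 of 387 WT eHCC, 0 of 27 KO premalignant and 3 of 34 WT premalignant members. Hbb-bs, a haemoglobin gene, stood at 21800 CPM in KO eHCC and 1740 CPM in WT eHCC among all other barcodes. The part of these RNAs in the differences below was not tested. A single WT eHCC barcode of 100240 UMIs held 5.38% of all member UMIs, and a single barcode held 96.8% of hepatocyte-marker UMIs there. Pairs of libraries shared 23 to 45 passing barcode sequences, none of which was a member in both.

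The neutrophil share was highest in the WT eHCC library. Members were 47 of 8963 passing barcodes in KO eHCC (0.524%, exact interval 0.386% to 0.697%) and 387 of 10282 in WT eHCC (3.76%, 3.40% to 4.15%). They were 27 of 9497 in KO premalignant (0.284%, 0.187% to 0.413%) and 34 of 13712 in WT premalignant (0.248%, 0.172% to 0.346%). The intervals of the 2 eHCC libraries do not overlap, and those of the 2 premalignant libraries do. As a ratio, the KO eHCC share was 7.18-fold lower than the WT eHCC share (log2 ratio -2.84, -3.31 to -2.40), and the premalignant ratio was 0.20 (-0.59 to 0.97). The eHCC share over the premalignant share was 0.88 (0.17 to 1.62) in the KO libraries and 3.92 (3.42 to 4.47) in the WT libraries, which is 15.2-fold.

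**Figure D1:**
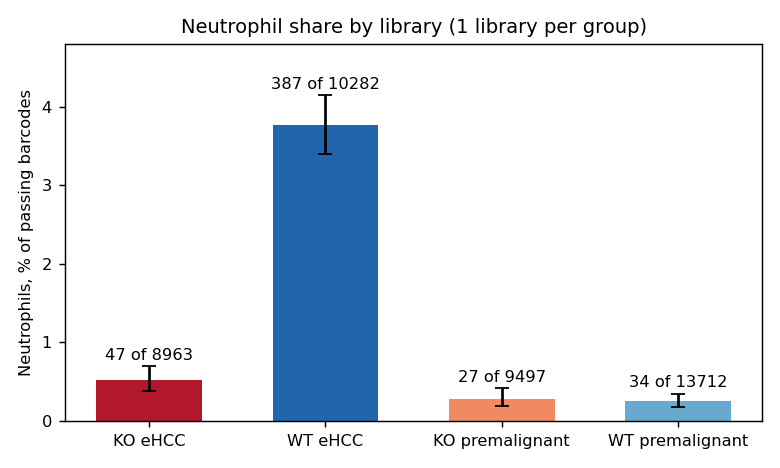
Neutrophils as a percentage of passing barcodes (y axis) in each library (x axis); bars give the share, whiskers its exact 95% interval, and the numbers above them the members of the passing barcodes. The WT eHCC library stands at 3.76% and the other 3 between 0.248% and 0.524%.

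A share depends on what else a library holds. Set against barcodes with a Csf1r UMI, which marks monocytes and macrophages, there were 4.8 neutrophils per 100 such barcodes in KO eHCC and 10.2 in WT eHCC, a log2 ratio of -1.09 (-1.56 to -0.65). The values were 10.3 in KO premalignant and 7.85 in WT premalignant. These Csf1r barcodes included those that met every other criterion for members. They were 17 of 979 in KO eHCC, 279 of 3789 in WT eHCC, 19 of 262 in KO premalignant and 8 of 433 in WT premalignant. On that scale the WT eHCC library was not apart from the WT premalignant one: its ratio to WT premalignant was 0.38 (-0.13 to 0.93), and that of KO eHCC to KO premalignant was -1.10 (-1.81 to -0.36). Members with 10 to 19 calgranulin UMIs numbered 0, 31, 0 and 0 in KO eHCC, WT eHCC, KO premalignant and WT premalignant libraries, and barcodes with 5 to 9 that met the rest numbered 2, 13, 0 and 0. Members with exactly 1 Csf3r UMI numbered 8, 65, 0 and 2, and barcodes without Csf3r that met the rest 14, 65, 1 and 0. Per 100 members, those with exactly 1 Csf3r UMI were 17 in KO eHCC and 16.8 in WT eHCC, and barcodes short of Csf3r alone were 29.8 in KO eHCC and 16.8 in WT eHCC.

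S100a8 and S100a9 encode the calgranulins, the most abundant cytosolic proteins of neutrophils, and were used by the rule, so their levels are a description. S100a8 stood at 103000 CPM in KO eHCC and 86200 CPM in WT eHCC members, and at 49100 CPM in KO premalignant and 93200 CPM in WT premalignant members. Per cell, both genes took a median of 23.1% of a member's UMIs in KO eHCC and 8.27% in WT eHCC, and 8.46% in KO premalignant and 16.8% in WT premalignant. WT eHCC members spread widest, with quartiles of 2.78% and 20.2% against 17.2% and 32.0% in KO eHCC. Calgranulins made up less than 2% of UMIs in 2 KO eHCC, 76 WT eHCC, 3 KO premalignant and 0 WT premalignant members.

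Secondary and tertiary granule genes were higher in KO eHCC than in WT eHCC members. Across 6824 genes with at least 20 UMIs in both libraries together, the median log2 ratio was -0.45 and 31.1% of genes were past 2-fold (5.03% higher and 26.1% lower in KO). Of 17 granule genes measured, 16 were above 0 and 5 at least 2-fold higher, with a median of 0.70. Camp, the cathelicidin precursor, stood at 8170 CPM in KO eHCC and 1400 CPM in WT eHCC (log2 ratio 2.54, 2.47 to 2.62). Ltf, the iron-binding lactoferrin, stood at 3610 CPM in KO eHCC and 576 CPM in WT eHCC (2.65, 2.53 to 2.76). Lcn2, the siderophore-binding lipocalin, stood at 5640 CPM in KO eHCC and 3670 CPM in WT eHCC (0.62, 0.55 to 0.69). The first 2 were carried by few cells: Camp had UMIs in 15 of 47 KO eHCC and 40 of 387 WT eHCC members. At least 10 UMIs of Camp, Ltf and Ngp together were held by 14 of 47 KO eHCC members (29.8%, 17.3% to 44.9%) and 54 of 387 WT eHCC members (14.0%, 10.7% to 17.8%), intervals that overlap slightly. The granule median was 0.50 to 1.16 over the alternatives, and 1.16 without members over 3 times the median UMI total.

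Primary granule genes mark a much younger stage and came from a pair of cells. Of 2261 UMIs of Mpo (myeloperoxidase), Elane (neutrophil elastase), Prtn3 and Ctsg in KO eHCC members, 2258 lay in 2 members. WT eHCC members held 15 such UMIs, KO premalignant members 0 and WT premalignant members 1. These 2 KO cells also held 232 of the 809 cell cycle UMIs (S and G2/M genes) counted in KO eHCC members.

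The same granule list was lower in KO premalignant than in WT premalignant members, with all Camp and Ltf UMIs of the WT members in 1 cell. Of 1259 genes measured, 16.0% were past 2-fold (10.0% higher and 5.96% lower in KO), with a median of 0.18. Of 15 granule genes, 10 were at least 2-fold lower and the median was -1.64. Camp had 0 UMIs in KO premalignant members and 323 in WT premalignant members, all of them in a single cell. Ltf likewise had 0 in KO premalignant and 86 in WT premalignant, in a single cell. Genes spread over more cells differed to varying degrees. Lcn2 differed by -2.11 (UMIs in 15 KO and 25 WT premalignant members) and Lyz2 by -1.64 (20 KO and 30 WT). Mmp8 differed by -1.59 (11 KO and 19 WT) and Wfdc21 by -1.49 (15 KO and 25 WT). Mmp9, the tertiary granule gelatinase, differed by -0.62 (-0.96 to -0.29). It stood at 1520 CPM in 27 of 27 KO premalignant members and 2340 CPM in 33 of 34 WT premalignant members. The 2 measured genes of the list above 0 were Slpi (0.01) and Adam8 (0.48). Without the top cell of each gene the granule median was -0.97 over 11 genes. Without the Csf3r criterion, which adds 1 KO premalignant barcode, it was -0.23, and Camp and Ltf were then higher in KO, at log2 ratios of 1.59 and 0.22.

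Retnlg, a resistin-like gene of mature mouse neutrophils, split the eHCC libraries. It stood at 16400 CPM in KO eHCC and 11700 CPM in WT eHCC members, with UMIs in 42 of 47 KO eHCC and 184 of 387 WT eHCC members. In premalignant liver it stood at 3100 CPM in KO and 8870 CPM in WT members, with UMIs in 25 of 27 KO and 33 of 34 WT members. After thinning to 500 UMIs, members with no Retnlg UMI were 14.9% in KO eHCC (6.20% to 28.3%) and 60.7% in WT eHCC (55.7% to 65.6%), and 33.3% in KO premalignant (16.5% to 54.0%) and 14.7% in WT premalignant (4.95% to 31.1%). In these thinned counts, Retnlg was seen in 0.197% of KO eHCC and 1.63% of WT eHCC B cell barcodes.

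Cxcr2 and most growth factor and cytokine receptors were lower in KO eHCC than in WT eHCC members. Cxcr2 stood at 282 CPM in KO eHCC and 707 CPM in WT eHCC (-1.33, -1.63 to -1.04), and Csf3r, used by the rule, at 669 CPM in KO eHCC and 1040 CPM in WT eHCC. In the premalignant libraries Cxcr2 stood at 1120 CPM in KO and 1240 CPM in WT members (-0.15, -0.57 to 0.26), an interval that includes 0. Of 18 growth factor and cytokine receptors measured in eHCC, 1 was above 0 and 10 were at least 2-fold lower in KO, against 26.1% of all genes, with a median of -1.20. Among members with Retnlg the median was -0.47, with 4 of 17 above 0, beside -0.21 for all genes. The lowest ratios were those of Tgfbr1, a TGF-beta receptor, at 16.2 CPM in KO eHCC and 121 CPM in WT eHCC, and Il4ra, the interleukin-4 receptor, at 24.4 CPM in KO eHCC and 166 CPM in WT eHCC. Over 10 chemoattractant receptors the median was -0.34, above that of all genes.

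Il1b, which encodes the inflammatory cytokine interleukin-1 beta, was lowest in KO eHCC members. It stood at 1920 CPM in KO eHCC and 7240 CPM in WT eHCC (-1.91, -2.02 to -1.80), and at 11100 CPM in KO premalignant and 11900 CPM in WT premalignant members (-0.11, -0.24 to 0.02). The premalignant libraries did not differ beyond counting error. Ccl3, a chemokine for monocytes and T cells, stood at 214 CPM in KO eHCC and 662 CPM in WT eHCC, but 69.6% of its KO eHCC UMIs lay in 1 cell. Cxcl2, a ligand of Cxcr2, stood at 4800 CPM in KO eHCC and 4710 CPM in WT eHCC (0.03, -0.05 to 0.10). Over 17 cytokines and chemokines the median was 0.10, with 1 at least 2-fold higher and 4 at least 2-fold lower in KO eHCC, shares near those of all genes (5.03% higher and 26.1% lower). Their summed UMIs gave a log2 ratio of -0.66 (-0.71 to -0.61), opposite in sign to the median.

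Interferon response genes, which interferons switch on through STAT and IRF factors, were higher in KO eHCC than in WT eHCC members. Of 24 measured, 22 were above 0 and 19 were at least 2-fold higher, against 5.03% of all genes, and 1 was at least 2-fold lower. The list's median was 2.07. Isg15, a ubiquitin-like modifier, stood at 934 CPM in KO eHCC (34 of 47 members) and 163 CPM in WT eHCC (90 of 387), and at 304 CPM in KO premalignant (10 of 27) and 467 CPM in WT premalignant (19 of 34). The KO eHCC library was the highest of the 4 and the WT eHCC library the lowest. Ifit1, an antiviral RNA-binding protein, stood at 290 CPM in KO eHCC and 17.7 CPM in WT eHCC (4.03, 3.46 to 4.64), with 1 UMI in KO premalignant and 0 in WT premalignant members. Irf7, a factor that amplifies the interferon response, stood at 154 CPM in KO eHCC and 45.6 CPM in WT eHCC (1.76, 1.25 to 2.26). The exceptions were the chemokine Cxcl10, with 3 UMIs in KO eHCC and 38 in WT eHCC (-1.33, -3.67 to 0.33), and Slfn1, at 200 CPM in KO eHCC and 311 CPM in WT eHCC.

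The interferon difference was spread over many cells and was not confined to neutrophils. After thinning to 500 UMIs, at least 3 interferon-list UMIs were found in 31 of 47 KO eHCC members (66.0%, 50.7% to 79.1%) and 48 of 387 WT eHCC members (12.4%, 9.29% to 16.1%), and in 6 of 27 KO premalignant (22.2%, 8.62% to 42.3%) and 11 of 34 WT premalignant members (32.4%, 17.4% to 50.5%). The intervals of the eHCC libraries are apart and those of the premalignant libraries overlap. All other passing barcodes held 483 CPM of Isg15 in KO eHCC and 70.6 CPM in WT eHCC, and 84.5 CPM in KO premalignant and 95.9 CPM in WT premalignant. Isg15 was higher in KO eHCC also among Csf1r barcodes (559 CPM in KO and 52.5 CPM in WT) and T cell barcodes (386 CPM in KO and 91.5 CPM in WT).

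**Figure D2:**
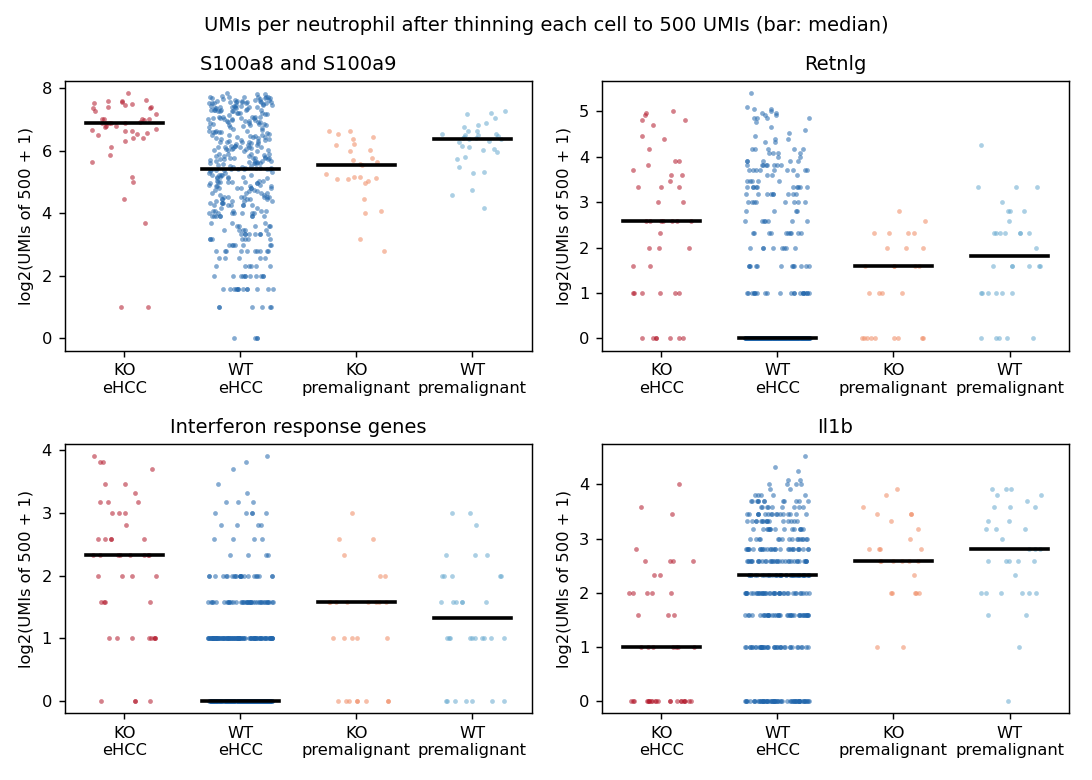
UMIs per member after thinning each to 500 UMIs, as log2(UMIs + 1) (y axes), for S100a8 and S100a9 together, Retnlg, the interferon list and Il1b in the 4 libraries (x axes); points are cells and bars medians. The median KO eHCC member has 116 calgranulin UMIs and 4 interferon UMIs, against 42 and 0 in WT eHCC, where the Retnlg median is 0.

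Promoters of Ifit1, Ifit3 and Isg15, interferon genes higher in KO eHCC, are shown. Interferon-activated factors are known to read an element of repeated GAAA. It was searched on either strand as GAAA, any 2 bases and GAAA again. Windows run from 250 bases before to 50 after the start of the gene in RefSeq on GRCm38.p6, and capitals mark the matches. The windows are chr19:34640639-34640938 on the plus strand for Ifit1, chr19:34583279-34583578 on the plus strand for Ifit3, and chr4:156200769-156201068 on the minus strand for Isg15.
Ifit1: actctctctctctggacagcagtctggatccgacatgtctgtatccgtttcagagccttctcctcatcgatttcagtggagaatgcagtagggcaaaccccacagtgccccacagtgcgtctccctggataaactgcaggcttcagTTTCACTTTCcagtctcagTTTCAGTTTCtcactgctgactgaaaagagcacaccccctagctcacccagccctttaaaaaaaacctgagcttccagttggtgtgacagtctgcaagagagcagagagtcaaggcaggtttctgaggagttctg
Ifit3: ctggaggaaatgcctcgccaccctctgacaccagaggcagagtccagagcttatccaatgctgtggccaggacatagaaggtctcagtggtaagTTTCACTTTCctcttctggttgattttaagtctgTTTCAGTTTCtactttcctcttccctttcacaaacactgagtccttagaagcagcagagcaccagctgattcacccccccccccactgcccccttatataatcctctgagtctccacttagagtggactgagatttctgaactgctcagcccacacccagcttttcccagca
Isg15: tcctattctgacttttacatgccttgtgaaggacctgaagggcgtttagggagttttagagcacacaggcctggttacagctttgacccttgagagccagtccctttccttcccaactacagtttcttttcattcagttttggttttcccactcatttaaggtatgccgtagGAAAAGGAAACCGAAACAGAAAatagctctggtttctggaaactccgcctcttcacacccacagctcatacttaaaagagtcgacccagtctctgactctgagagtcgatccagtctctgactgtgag
In Isg15 3 overlapping matches form 1 run of capitals. Of the interferon list, 21 genes had a window and 10 of these held the motif (47.6%), against 943 of 27025 windows of all genes (3.49%). It was in 1 of 15 windows of the secondary and tertiary granule list and 0 of 15 of the immediate-early list. Among interferon genes not shown, Ifit3b (log2 ratio 4.07) held 2 matches, but Ifit2 (3.33) and Xaf1 (3.26) held 0. Cxcl10 (-1.33) and Stat2 (0.09) held 1 each. A match is a description of these letters and not a measured binding site.

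Immediate-early genes, transcribed within minutes of a stimulus, were lower in KO eHCC than in WT eHCC members. Of 17 measured, 1 was above 0 and 11 were at least 2-fold lower, against 26.1% of all genes, with a median of -1.11. Junb, an AP-1 subunit, stood at 2500 CPM in KO eHCC and 5890 CPM in WT eHCC (-1.24, -1.33 to -1.14), and at 12500 CPM in KO premalignant and 10100 CPM in WT premalignant (0.31, 0.19 to 0.44). Fos, its partner, stood at 1210 CPM in KO eHCC and 2480 CPM in WT eHCC (-1.03, -1.18 to -0.89), and at 4740 CPM in KO premalignant and 4240 CPM in WT premalignant (0.16, -0.04 to 0.37). Both genes were higher in both premalignant libraries than in both eHCC libraries. All 17 genes were above 0 in KO over WT premalignant members, with a median of 0.37, against 0.18 for all genes. Of these 17, 3 were at least 2-fold higher, against 10.0% of all genes. In eHCC the median was -0.62 with every cell weighted equally and -0.58 among members with Retnlg, beside -0.21 for all genes in the latter.

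Glycolysis and hypoxia genes were higher in KO eHCC members, with 22 of 26 above 0, 10 at least 2-fold higher, against 5.03% of all genes, and a median of 0.70, against -0.45 for all genes. Among members with Retnlg the median was 0.37, beside -0.21 for all genes. There 9 of 26 were at least 2-fold higher, against 210 of 3624 genes. Hilpda, a lipid droplet protein induced by hypoxia, stood at 303 CPM in KO eHCC (18 of 47 members) and 29.5 CPM in WT eHCC (24 of 387). Among all other passing barcodes Hilpda stood at 86.3 CPM in KO eHCC and 34.2 CPM in WT eHCC. Pgk1, a glycolytic kinase, stood at 536 CPM in KO eHCC and 130 CPM in WT eHCC (2.04, 1.76 to 2.32), with 51.5% of the KO eHCC UMIs in 1 cell. Among members with Retnlg, Hilpda differed by 4.70 (3.63 to 5.97) and Pgk1 by 0.79 (0.35 to 1.23). The glucose transporter Slc2a1 was not higher, at 100 CPM in KO eHCC and 123 CPM in WT eHCC (-0.29, -0.84 to 0.21). In the premalignant libraries 4 of 15 measured genes of the list were above 0.

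Survival and apoptosis genes were on balance lower in KO eHCC members, with 2 of 18 above 0, 7 at least 2-fold lower, against 26.1% of all genes, and a median of -0.78, against -0.45. Among members with Retnlg the list was near all genes, with 1 of 13 at least 2-fold lower and a median of -0.13 beside -0.21 for all genes. Mcl1, the factor on which neutrophil survival depends most, stood at 1630 CPM in KO eHCC and 2540 CPM in WT eHCC (-0.64, -0.76 to -0.51). Bcl2l1, which encodes the anti-apoptotic Bcl-xL, stood at 8.12 CPM in KO eHCC and 77.3 CPM in WT eHCC (-3.25, -5.54 to -1.67). Of 17 antigen presentation genes measured, 11 were above 0, with a median of 0.57, against -0.45 for all genes. At least 2-fold higher were 4, against 5.03% of all genes. At least 2-fold lower were 5, a share near the 26.1% of all genes. The class I gene H2-K1 stood at 1230 CPM in KO eHCC and 510 CPM in WT eHCC (1.27, 1.10 to 1.43). Among class II genes, H2-Aa stood at 19.0 CPM in KO eHCC and 96.1 CPM in WT eHCC (-2.34, -3.68 to -1.27), and Cd74, the invariant chain, at 40.6 CPM in KO eHCC and 203 CPM in WT eHCC (-2.32, -3.17 to -1.58). C1qb, a complement gene of macrophages, moved with them, at 0 CPM in KO eHCC and 96.6 CPM in WT eHCC members, and its part in these values was not tested.

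**Figure D3:**
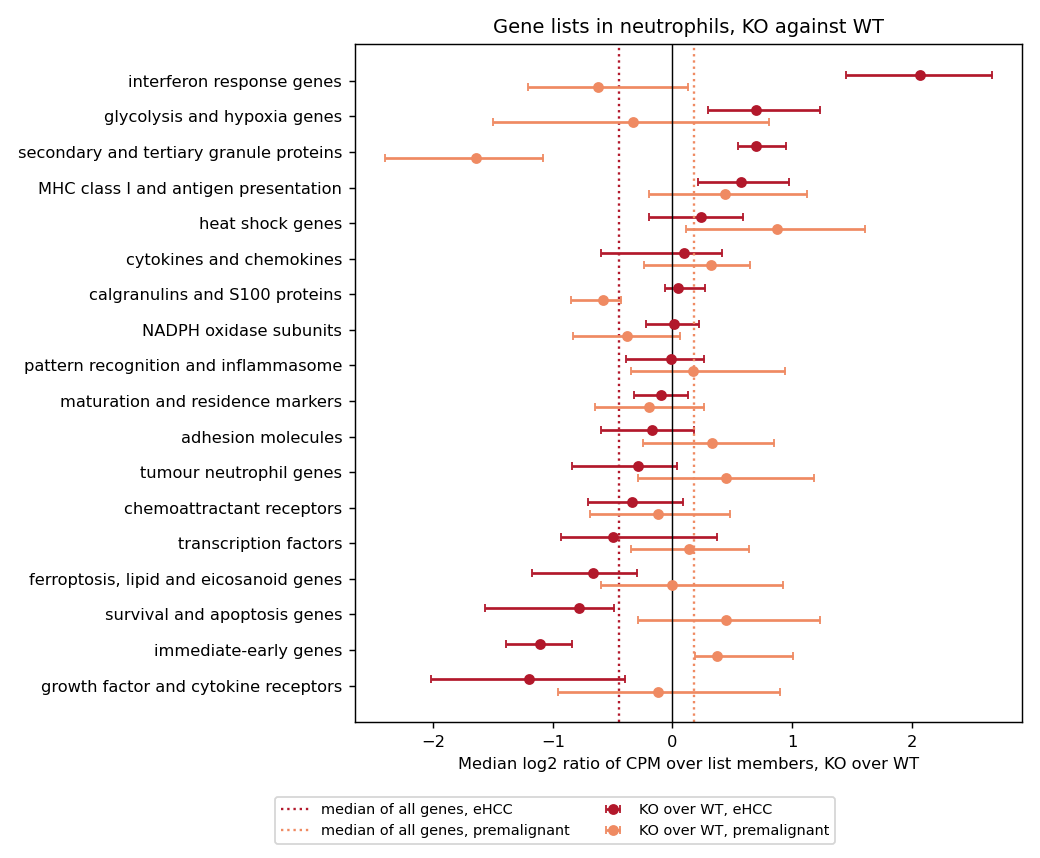
Median log2 ratio of CPM, KO over WT (x axis), over the measured members of each gene list (y axis; primary granule, cell cycle and free RNA lists not drawn), in eHCC and premalignant libraries; whiskers run from the median of the members' lower bounds to that of their upper bounds, and dotted lines mark the median of all genes. Of the lists drawn, in eHCC the interferon list is highest at 2.07 and that of growth factor and cytokine receptors lowest at -1.20; the granule list is 0.70 in eHCC and -1.64 in premalignant liver.

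The 10 genes highest in KO eHCC over WT eHCC members by the naming rule were Ifit1, Hilpda, Ltf, Camp, Ifit3, Ifi204, Zbp1, Ero1l, Isg15 and Ifi27l2a. Ifit3, Ifi204 and Zbp1, all interferon-induced, were 8.65-fold, 8.16-fold and 7.83-fold higher. Ero1l, an oxidase of the endoplasmic reticulum, was 6.99-fold higher at 214 CPM in KO eHCC and 30.6 CPM in WT eHCC. Ifi27l2a stood at 1460 CPM in KO eHCC and 288 CPM in WT eHCC members, and at 1660 CPM in KO eHCC and 368 CPM in WT eHCC among all other barcodes.

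The 10 lowest were Clec4n, Igfbp6, Ltc4s, Scimp, Mrpl52, Gngt2, Gm19951, Adamdec1, Socs3 and Prnp. Clec4n, the fungal receptor dectin-2, had 4 UMIs in 3 of 47 KO eHCC members and 684 in 187 of 387 WT eHCC members (-5.08, -6.96 to -3.72). Igfbp6, Ltc4s, Scimp and Adamdec1 had 0 UMIs in KO eHCC members and 192, 183, 176 and 131 in WT eHCC members. Against a floor of 3 UMIs in KO eHCC, Ltc4s, the leukotriene C4 synthase, was at least 12.1-fold lower and Scimp, an adaptor of pattern receptors, at least 11.6-fold lower. Socs3, an inhibitor of STAT3 signalling, stood at 35.2 CPM in KO eHCC and 351 CPM in WT eHCC (-3.32, -4.23 to -2.53). Each of these 10 genes was also lower in KO eHCC among all other passing barcodes. There Clec4n stood at 21.2 CPM in KO eHCC and 166 CPM in WT eHCC, Ltc4s at 2.07 and 28.7, Scimp at 16.5 and 38.8, Socs3 at 156 and 261, and Mrpl52 at 212 and 237. The part of RNA from other cells in the member values was not tested.

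**Figure D4:**
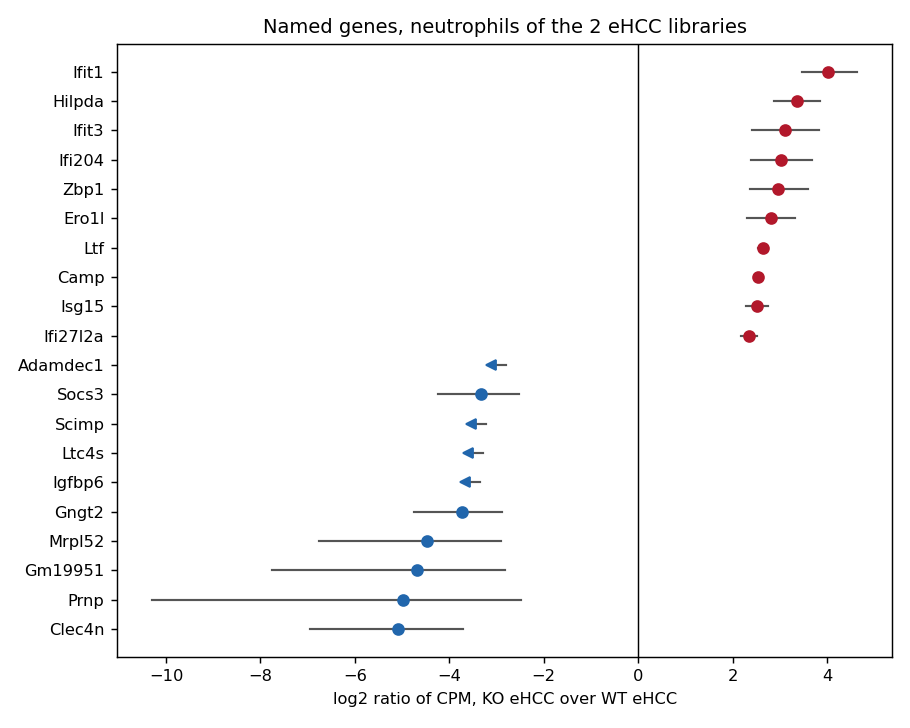
Log2 ratio of CPM, KO eHCC over WT eHCC (x axis), of the 20 genes named by the rule (y axis); points are ratios, lines exact 95% intervals of counting error, and triangles bounds for genes with 0 UMIs in KO eHCC. Ifit1 is highest at 4.03 and Clec4n lowest at -5.08.

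Across stages, WT eHCC over WT premalignant members had 30.2% of 5595 genes past 2-fold (21.4% higher and 8.78% lower in eHCC), with a median of 0.23. Cdkn1a, the cell cycle inhibitor p21, stood at 607 CPM in 163 of 387 WT eHCC members and 37.4 CPM in 3 of 34 WT premalignant members (4.02, 2.66 to 5.90). Siglecf is a sialic acid receptor of eosinophils that is also found on neutrophils of mouse tumours. It had 279 UMIs (150 CPM) in 143 of 387 WT eHCC members and 1 UMI (9.34 CPM) in 34 WT premalignant members. Eosinophil markers, with Siglecf among them, made up 0.016% of WT eHCC member UMIs, with Epx, Prg2 and Ear1 at 0. Their part in the Siglecf difference was not tested. Bcl2a1a, a survival gene, had 252 and 0 UMIs in WT eHCC and WT premalignant members, and Itgax, an integrin of myeloid cells, 186 and 0. The members' summed UMIs were 1863584 and 107091. Against the floor of 3 UMIs, Bcl2a1a was at least 4.83-fold and Itgax at least 3.56-fold higher in WT eHCC. In all other passing barcodes Bcl2a1a stood at 51.3 CPM in WT eHCC and 7.6 CPM in WT premalignant, and Itgax at 58.7 and 9.93. The other higher genes by rule were Gm42418, Stfa1, Gm19951, Fam105a, Chil3 and Eprs, and Stfa1 was carried by 17 members. These genes were also higher in WT eHCC among all other passing barcodes. There Gm42418 stood at 8140 CPM in WT eHCC and 2510 CPM in WT premalignant, Chil3 at 1880 and 16.8, Fam105a at 185 and 50.2, and Eprs at 107 and 85.6.

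Lower in WT eHCC over WT premalignant members were AI467606, Steap4, Klra17, Rtp4, Wfdc17, Sh2d3c, Dusp1, Slc44a1 and Klf3. Dusp1, a phosphatase of MAP kinases, stood at 1650 CPM in WT eHCC and 4970 CPM in WT premalignant (-1.59, -1.72 to -1.45). Immediate-early genes had a median of -0.77, with 4 of 17 above 0 and 5 at least 2-fold lower. For interferon genes it was -0.52, with 0 of 19 at least 2-fold higher and 5 at least 2-fold lower. The medians of these genes' lower and upper bounds were -1.95 and 1.07, on either side of 0. Isg15 differed by -1.52 (-1.95 to -1.06).

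KO eHCC over KO premalignant members had 43.0% of 2405 genes past 2-fold (17.3% higher and 25.7% lower in eHCC), with a median of -0.25. Immediate-early genes were lower, with 15 of 17 at least 2-fold lower, 0 above 0 and a median of -2.32. Granule genes were higher, with 12 of 16 at least 2-fold higher and a median of 2.17, which was 0.77 without the Csf3r criterion. Glycolysis and hypoxia genes had a median of 1.40 with 13 of 22 at least 2-fold higher, and interferon genes 0.84 with 9 of 19. For the interferon genes, the medians of the lower and upper bounds were -0.36 and 2.31, on either side of 0. Il1b stood at 1920 CPM in KO eHCC and 11100 CPM in KO premalignant members (-2.53, -2.67 to -2.38). KO premalignant members numbered 27, under the 30 set for naming single genes, so none were named by rank in comparisons that use them.

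Within the WT eHCC library, members without Retnlg after thinning differed from those with it in many genes. This split was made after the data had been seen, and members over 3 times the median UMI total were left out, which kept 230 without and 144 with Retnlg. All members without Retnlg had a median of 3427 UMIs and 1523 genes, and those with it 4784 UMIs and 1371 genes. The median over 5904 genes was 0.95, 47.8% were at least 2-fold higher and 5.0% at least 2-fold lower in members without Retnlg, so gene lists are read against these shares. S100a8 stood at 28300 CPM without and 144000 CPM with Retnlg, while Csf3r stood at 1300 CPM without and 1110 CPM with it and Cxcr2 at 672 CPM without and 937 CPM with it. Of 17 secondary and tertiary granule genes, 14 were at least 2-fold lower without Retnlg. Ly6g, the surface antigen that antibodies to mouse neutrophils bind, stood at 7.42 CPM without and 517 CPM with Retnlg.

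Members without Retnlg held more RNA of Siglecf and of some secreted factors, but the cytokine and chemokine list as a whole lay at the level of all genes. Of its 16 genes, 8 were at least 2-fold higher and 2 at least 2-fold lower without Retnlg, with a median of 0.88, against 47.8% higher and 0.95 for all genes. Cxcl2 stood at 4950 CPM without and 5710 CPM with Retnlg, and Ccl6, a chemokine of myeloid cells, at 282 CPM without and 1440 CPM with it. Siglecf stood at 319 CPM in 56.5% of members without Retnlg and 15.4 CPM in 7.64% of members with it (4.38, 3.55 to 5.35). Ccl3 stood at 1430 CPM without and 83.2 CPM with Retnlg, Csf1, the macrophage growth factor, at 337 CPM without and 43.5 CPM with it, and Il1b at 11600 CPM without and 4870 CPM with it. Ccrl2, a chemerin-binding receptor, stood at 2870 CPM without and 233 CPM with Retnlg, and Cdkn1a at 1290 CPM without and 65.3 CPM with it. Clec4n, Ltc4s, Scimp and Mrpl52, among the genes lowest in KO eHCC over WT eHCC members, were also higher without Retnlg. Clec4n stood at 803 CPM without and 38.4 CPM with it. Mitochondrial UMIs were a median of 2.06% without and 0.745% with Retnlg, and their part in the split was not tested.

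**Figure D5:**
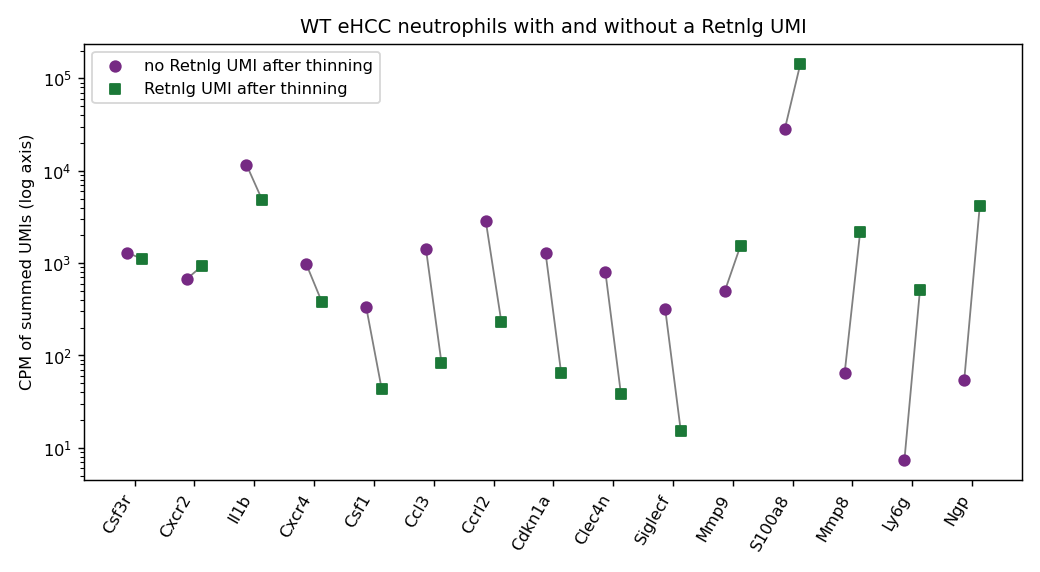
CPM of summed UMIs on a log axis (y axis) of 15 genes (x axis) in WT eHCC members without (circles) and with (squares) a Retnlg UMI after thinning. Csf3r, which the rule used, and Cxcr2 lie close together, while Siglecf stands at 319 against 15.4 CPM and Ngp at 54.4 against 4200 CPM. The median log2 ratio of all genes, without over with Retnlg, was 0.95, so equal CPM lies below the median gene.

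Restricting both eHCC libraries to members with Retnlg left 39 KO eHCC and 144 WT eHCC members. There, 21.8% of 3624 genes were past 2-fold (210 genes higher and 581 lower in KO) and the median of all genes was -0.21. The interferon list had a median of 2.05, with 18 of 20 genes at least 2-fold higher in KO, and Isg15 stood at 1310 CPM in KO eHCC and 225 CPM in WT eHCC. Granule genes had a median of 0.50, and Camp stood at 7520 CPM in KO eHCC and 604 CPM in WT eHCC. Immediate-early genes had a median of -0.58 with 3 of 17 at least 2-fold lower, a share near that of all genes. Siglecf, with 2 UMIs in KO eHCC and 12 in WT eHCC, differed by -0.89 (-4.09 to 1.28), an interval that includes 0.

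The demand for 0 Csf1r UMIs left out barcodes that met every other criterion. There were 17 in KO eHCC (0.19% of passing barcodes), 279 in WT eHCC (2.71%), 19 in KO premalignant (0.2%) and 8 in WT premalignant (0.0583%). A Cxcr2 UMI was held by 47.1% of them in KO eHCC, 71.0% in WT eHCC, 94.7% in KO premalignant and 100% in WT premalignant. In WT eHCC, 85 of the 279 also held at least 3 UMIs of complement C1q genes, which macrophages express. C1qa stood at 1350 CPM in these 279 barcodes, against 80.5 CPM in members and 3650 CPM in the other Csf1r barcodes of that library. The part of macrophage RNA in these barcodes was not tested.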

How the data were processed

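RNA of dissociated mouse liver tissue was read in 4 libraries. Each deposited matrix gives UMI counts that are raw and not normalised, for every gene in every barcode. Their headers name Cell Ranger, version 3.0.1, as the authors' counting software. The submitters' processing notes also list bcl2fastq 2.20.0, and both mm10 and GRCh38, with no role for any of them. The files list 31053 mouse genes; 36 symbols that occur more than once were kept apart by identifier.

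Barcodes needed at least 500 UMIs, 300 genes and at most 25% mitochondrial UMIs. The libraries held 93920711 (KO eHCC), 118594527 (WT eHCC), 56458438 (KO premalignant) and 96593761 (WT premalignant) UMIs. No barcode that failed these filters met the gene rule. No doublet caller was run; members with markers of another lineage, and members of very high UMI total, were left out as alternatives. The members, 23 gene lists and settings were chosen with earlier results of these data known.

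UMIs were summed over members per library and scaled to CPM of that sum. Shares have exact Clopper-Pearson intervals and ratios exact conditional binomial intervals, at 95%, for counting error only. A gene with 0 UMIs was set against a floor of 3 UMIs over the library's members. Lists were summarised by the median over genes with at least 20 UMIs in both libraries together. Genes named beside the lists were the 10 highest and 10 lowest by the interval bound nearest 0, with at least 50 UMIs, UMIs in at least 5 members, at most 50% of UMIs in 1 cell and a level at least 0.5 of that in other barcodes, without mitochondrial, ribosomal, receptor segment, haemoglobin and sex-linked genes, where both libraries had 30 members. In WT eHCC over WT premalignant, 1 gene that met this rule is not reported here. Cells were thinned to 500 UMIs with seed 7. The ratio script was tested on simulated data. No test between groups was run, since each group has 1 library. Python 3.11.15, numpy 2.4.6, scipy 1.17.1, pandas 2.3.3 and matplotlib 3.10.9 were used.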

Additional observations from a re-analysis of the deposited data

Results flagged for a closer look

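Secondary and tertiary granule genes lay on opposite sides of 0 in the KO against WT comparison at the 2 stages, with a median log2 ratio of 0.70 in eHCC and -1.64 in premalignant liver. The difference between the stages was not tested, and 1 WT premalignant cell held all Camp and Ltf UMIs of its library's members. Immediate-early genes did so too, with -1.11 in eHCC and 0.37 in premalignant liver, and this difference was not tested either. The median of all genes was -0.45 in eHCC and 0.18 in premalignant liver. Barcodes left out for a Csf1r UMI alone were 2.71% of passing barcodes in WT eHCC. The main comparisons between members do not use this set, which was counted among the Csf1r barcodes.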

How the results depend on the processing

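No paired analysis was possible because each group has 1 library, and for the same reason no replicate could be left out. Leaving out KO members with primary granule RNA and restricting eHCC members to those with Retnlg were alternatives chosen after seeing the data. Under the alternatives for the members, the share log2 ratios ranged over -3.18 to -2.43 (KO over WT, eHCC), 0.19 to 0.66 (KO over WT, premalignant), 0.56 to 1.21 (eHCC over premalignant, KO) and 3.79 to 4.4 (eHCC over premalignant, WT). The interferon median in eHCC ranged over 1.78 to 2.63 and that of glycolysis and hypoxia over 0.35 to 0.98. The cause of the changes below was not tested.

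Genes past 2-fold in KO over WT, eHCC, were 2121, and 530 after thinning to 500 UMIs and 1219 with at least 50 UMIs. In KO over WT, premalignant, they were 201, and 100 without members holding other-lineage UMIs, 30 after thinning, 1171 with at least 5 UMIs and 40 with at least 50. In eHCC over premalignant, KO, they were 1035, and 565 without other-lineage holders, 643 without members over 3 times the median UMI total, 88 after thinning, 2180 with at least 5 UMIs and 449 with at least 50. In eHCC over premalignant, WT, they were 1689, and 438 after thinning.

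The granule median in KO over WT, eHCC, of 0.70 was 0.54 with a calgranulin minimum of 5, 0.97 without other-lineage holders, 1.16 without members over 3 times the median, 0.99 without primary granule cells, 0.99 with cells weighted equally, 0.98 after thinning, 0.51 without the top cell of each gene and 0.50 among members with Retnlg. In premalignant liver, -1.64 became -0.23 without the Csf3r criterion, -0.94 without that on Csf1r, -0.70 without other-lineage holders, -0.84 without members over 3 times the median, -1.05 after thinning and -0.97 without top cells. For eHCC over premalignant, KO, 2.17 became 0.77 without the Csf3r criterion. The immediate-early median in KO over WT, eHCC, of -1.11 was -0.77 without other-lineage holders, -0.62 with cells weighted equally and -0.58 among members with Retnlg. For eHCC over premalignant, KO, -2.32 became -1.90 without other-lineage holders, -1.73 with cells weighted equally and -1.64 after thinning.

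Of values whose interval lay to 1 side of 0, these changed sign. In KO over WT, eHCC, the antigen presentation median was -0.03 after thinning, the cell cycle median -0.94 without other-lineage holders and -0.68 without members over 3 times the median, and the ferroptosis and lipid median 0.08 among members with Retnlg. Among members with Retnlg, medians whose interval had included 0 also changed sign: tumour neutrophil genes, -0.29 over all members, were at 0.25, calgranulins, 0.05, at -0.20 and NADPH oxidase subunits, 0.01, at -0.06. In KO over WT, premalignant, Ltf was 0.22 and Camp 1.59 without the Csf3r criterion, and Junb 0.00 after thinning. In eHCC over premalignant, KO, chemoattractant receptors were 0.11 after thinning and cell cycle genes -1.03 without the Csf3r criterion. In eHCC over premalignant, WT, medians without top cells were 0.05 for calgranulins and -0.39 for hepatocyte genes. There, Retnlg was -0.57 without the Csf1r criterion. S100a8 was 0.04 with a minimum of 20, 0.01 without members over 3 times the median and 0.14 without the top cell, and S100a9 was 0.00 with a minimum of 20 and 0.05 without the top cell. Ltf was 0.24 without the Csf3r criterion, and, with WT premalignant members at the floor of 3 UMIs, at least 3.62 without other-lineage holders, 2.15 without members over 3 times the median and 4.0 without its top cell. Camp was, against the same floor, at least 4.65 without other-lineage holders, 3.28 without members over 3 times the median and 5.31 without its top cell.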
